A study of Mus musculus with 3 samples.

Results

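Notch1, Dll1, Dll4, Jag1, Hes1, Atoh1, Spdef, Gfi1, Neurog3 and Pou2f3 are genes of the Notch pathway and of the choice between absorptive and secretory fates in the gut. They were taken by name, 10 of the 27998 genes counted, and followed over the cell classes of 3 single-cell libraries of sorted EpCAM+ epithelial cells from the mouse small intestine. EpCAM marks epithelium on the cell surface. The libraries were WT, LApc (Lgr5-CreERT2;Apc fl/fl) and LApcL (the same alleles with Lef1 fl/fl added), 1 library each, on the C57BL/6 strain. All 3, WT included, came from mice of 7 to 8 weeks given 2 tamoxifen doses of 2 mg. They were taken on day 29 for LApc and on day 21 for LApcL and WT, in the mutants when the criteria for euthanization were met. Tamoxifen switches on the Cre recombinase, which is made from the Lgr5 locus and hence in crypt stem cells, so the deletions reach stem cells and their descendants and leave other cells with the floxed alleles. The study asked what loss of the Wnt effector Lef1 adds to loss of Apc, the brake on Wnt signalling. Genotype, mouse and library, and for LApc also the day, cannot be told apart here.

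In the crypt, a cell that carries Notch ligands such as Dll1 and Dll4 activates the receptor Notch1 on its neighbours. The cut receptor switches on Hes1, a repressor that keeps Atoh1 off and so holds the neighbour on the absorptive path, while a cell that escapes the signal makes Atoh1 and takes a secretory fate. Spdef and Gfi1 then act within the goblet and Paneth lineages, Neurog3 starts the enteroendocrine lineage, and Pou2f3 is the defining factor of tuft cells. Jag1 is a further Notch ligand.

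The start of each gene is shown for the members whose levels the results turn on, because basic helix-loop-helix factors such as Atoh1 bind E boxes and Rbpj, the DNA-binding partner of cut Notch, binds TGGGAA. RefSeq (GRCm38.p6) gave 10 windows for 8 of the 10 genes, and each window held the 250 bases before the start of transcription. Hes1 and Pou2f3 had no entry. Capitals mark CAGCTG in Dll1 and Neurog3 and TGGGAA in Spdef. Positions count back from the start, and motifs were searched on both strands.
Dll1, chr17:15376933-15377182, minus strand, E box at -132: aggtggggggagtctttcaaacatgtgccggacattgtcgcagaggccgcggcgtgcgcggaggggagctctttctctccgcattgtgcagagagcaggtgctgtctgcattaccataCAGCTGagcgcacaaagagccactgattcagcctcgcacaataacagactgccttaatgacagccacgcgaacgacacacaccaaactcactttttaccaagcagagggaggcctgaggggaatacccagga
Neurog3, chr10:62132840-62133089, plus strand, E box at -165: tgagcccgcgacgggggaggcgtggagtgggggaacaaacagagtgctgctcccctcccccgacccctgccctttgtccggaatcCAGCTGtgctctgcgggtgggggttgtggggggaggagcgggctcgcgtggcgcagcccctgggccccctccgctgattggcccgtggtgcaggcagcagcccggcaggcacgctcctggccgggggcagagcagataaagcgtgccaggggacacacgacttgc
Spdef, chr17:27728952-27729201, minus strand, TGGGAA at -22: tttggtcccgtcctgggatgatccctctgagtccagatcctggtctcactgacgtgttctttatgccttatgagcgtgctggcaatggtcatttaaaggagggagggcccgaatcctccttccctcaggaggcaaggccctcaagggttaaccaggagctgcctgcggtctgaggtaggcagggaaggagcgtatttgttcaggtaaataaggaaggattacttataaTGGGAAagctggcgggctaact
Atoh1, chr6:64728875-64729124, plus strand, none of these motifs: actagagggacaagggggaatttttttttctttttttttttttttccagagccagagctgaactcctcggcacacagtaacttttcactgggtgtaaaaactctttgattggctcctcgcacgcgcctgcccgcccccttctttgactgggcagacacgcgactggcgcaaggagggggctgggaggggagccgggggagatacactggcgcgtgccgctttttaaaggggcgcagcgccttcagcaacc
Over all 10 windows, CAGATG or CAGCTG stood in 3 (Dll1, Neurog3 and Jag1, the last at -82) and TGGGAA in 1, against 25.5% and 21.6% of the 32851 promoters of this length. CACNAG, the N box of Hes repressors, stood in the windows of Notch1 (-108) and Dll4 (-75) and in 36.7% of all promoters. The Notch1 window lay at chr2:26503823-26504072, inside the gene span given below, so -108 counts from the RefSeq start and not from the end of that span. A second Dll1 window and both Gfi1 windows held none of the motifs.

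The libraries held 11453 to 17388 barcodes, of which 10109 (WT), 9578 (LApc) and 14381 (LApcL) were kept, with medians of 9711, 6126 and 10154 UMIs, and 122 to 219 barcodes were shared between any 2 libraries. Cells were sorted into goblet-like, Paneth-like, enteroendocrine-like, tuft-like and enterocyte-like classes by fixed markers that hold none of the 10 genes, and the members were also left out of the clustering. Wnt/TA-like cells (Wnt targets and transit-amplifying genes) were split into adenoma-enriched cells (1265 in LApc and 9505 in LApcL), in subclusters where WT made up under 10% at equal weighting, and the remaining crypt-like cells (3029 in WT, 2294 in LApc and 1135 in LApcL). Only 12 WT cells fell in the adenoma-enriched class, and they were not compared. A further cluster led by Ccl9 and Agr2 carried goblet and cell-cycle genes and was left unnamed. Lef1, the gene deleted in LApcL, stood at 21.6 CPM in the adenoma-enriched cells of LApc and at 3.60 CPM in those of LApcL, and at 0.35 to 1.27 CPM in crypt-like cells. Apc stood at 48.9 and 37.1 CPM in the same adenoma-enriched cells and at 19.1 to 22.8 CPM in crypt-like cells, and a 3′ tag outside the deleted part does not check its deletion. In adenoma-enriched cells the 10 immune markers summed to 52.3 CPM in LApc and 2.05 CPM in LApcL with none at 0, the 5 endothelial markers to 49.0 and 28.1 CPM with Cd34 at 0 in both, and the 5 stromal markers to 4.51 CPM (Col1a1 and Col1a2 at 0) and 0.686 CPM (Col1a1 and Dcn at 0). Their part in the results was not tested.

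Levels below are CPM, the UMIs of a gene for each 1000000 UMIs of the class, from UMIs summed over the cells of a class in 1 library, with exact Poisson 95% intervals. Each molecule gives 1 tag at its 3′ end, so levels were compared between classes and libraries for 1 gene at a time. With 1 library for each genotype no test between genotypes was possible. A gene is said to be past the fold where the ratio of CPM was 1.5 or more, the exact 95% interval of the ratio left out 1 and both sides together held 20 UMIs or more. Such intervals reflect the counting of molecules, and the variation from mouse to mouse is outside them.

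Notch1, the receptor, had its highest value in crypt-like cells in every library (Notch1, chromosome 2, 26457903 to 26516663, minus strand, GRCm38). Its level in crypt-like cells was 28.3 CPM in WT (26.5 to 30.1), 24.1 in LApc (21.7 to 26.6) and 23.5 in LApcL (20.8 to 26.6). Adenoma-enriched cells stood lower, at 16.6 CPM in LApc (14.1 to 19.3) and 17.0 CPM in LApcL (16.2 to 17.8), below crypt-like cells of the same library with log2 ratios of -0.54 and -0.47, short of the fold. The interval of the difference between the libraries, 0.04 on the log2 scale (-0.19 to 0.27), spanned 0. Tuft-like cells held 16.6, 13.4 and 19.0 CPM in WT, LApc and LApcL and enteroendocrine-like cells 15.9, 10.7 and 11.4 CPM, with intervals that overlapped in each library. In LApcL the interval of tuft-like cells also overlapped that of crypt-like cells. At the other end, goblet-like cells stood at 1.68 CPM in WT, 1.82 in LApc and 4.55 in LApcL and enterocyte-like cells at 2.59, 2.95 and 6.24 CPM, so the LApcL level was the highest of the 3 in both classes. Crypt-like and adenoma-enriched cells, in this order, held 73.2% and 0.379% of the Notch1 UMIs of WT, 55.4% and 23.9% of those of LApc, and 10.9% and 80.1% of those of LApcL. The annotation places 0610009E02Rik and Gm13568 on the opposite strand within Notch1.

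**Figure D1:**
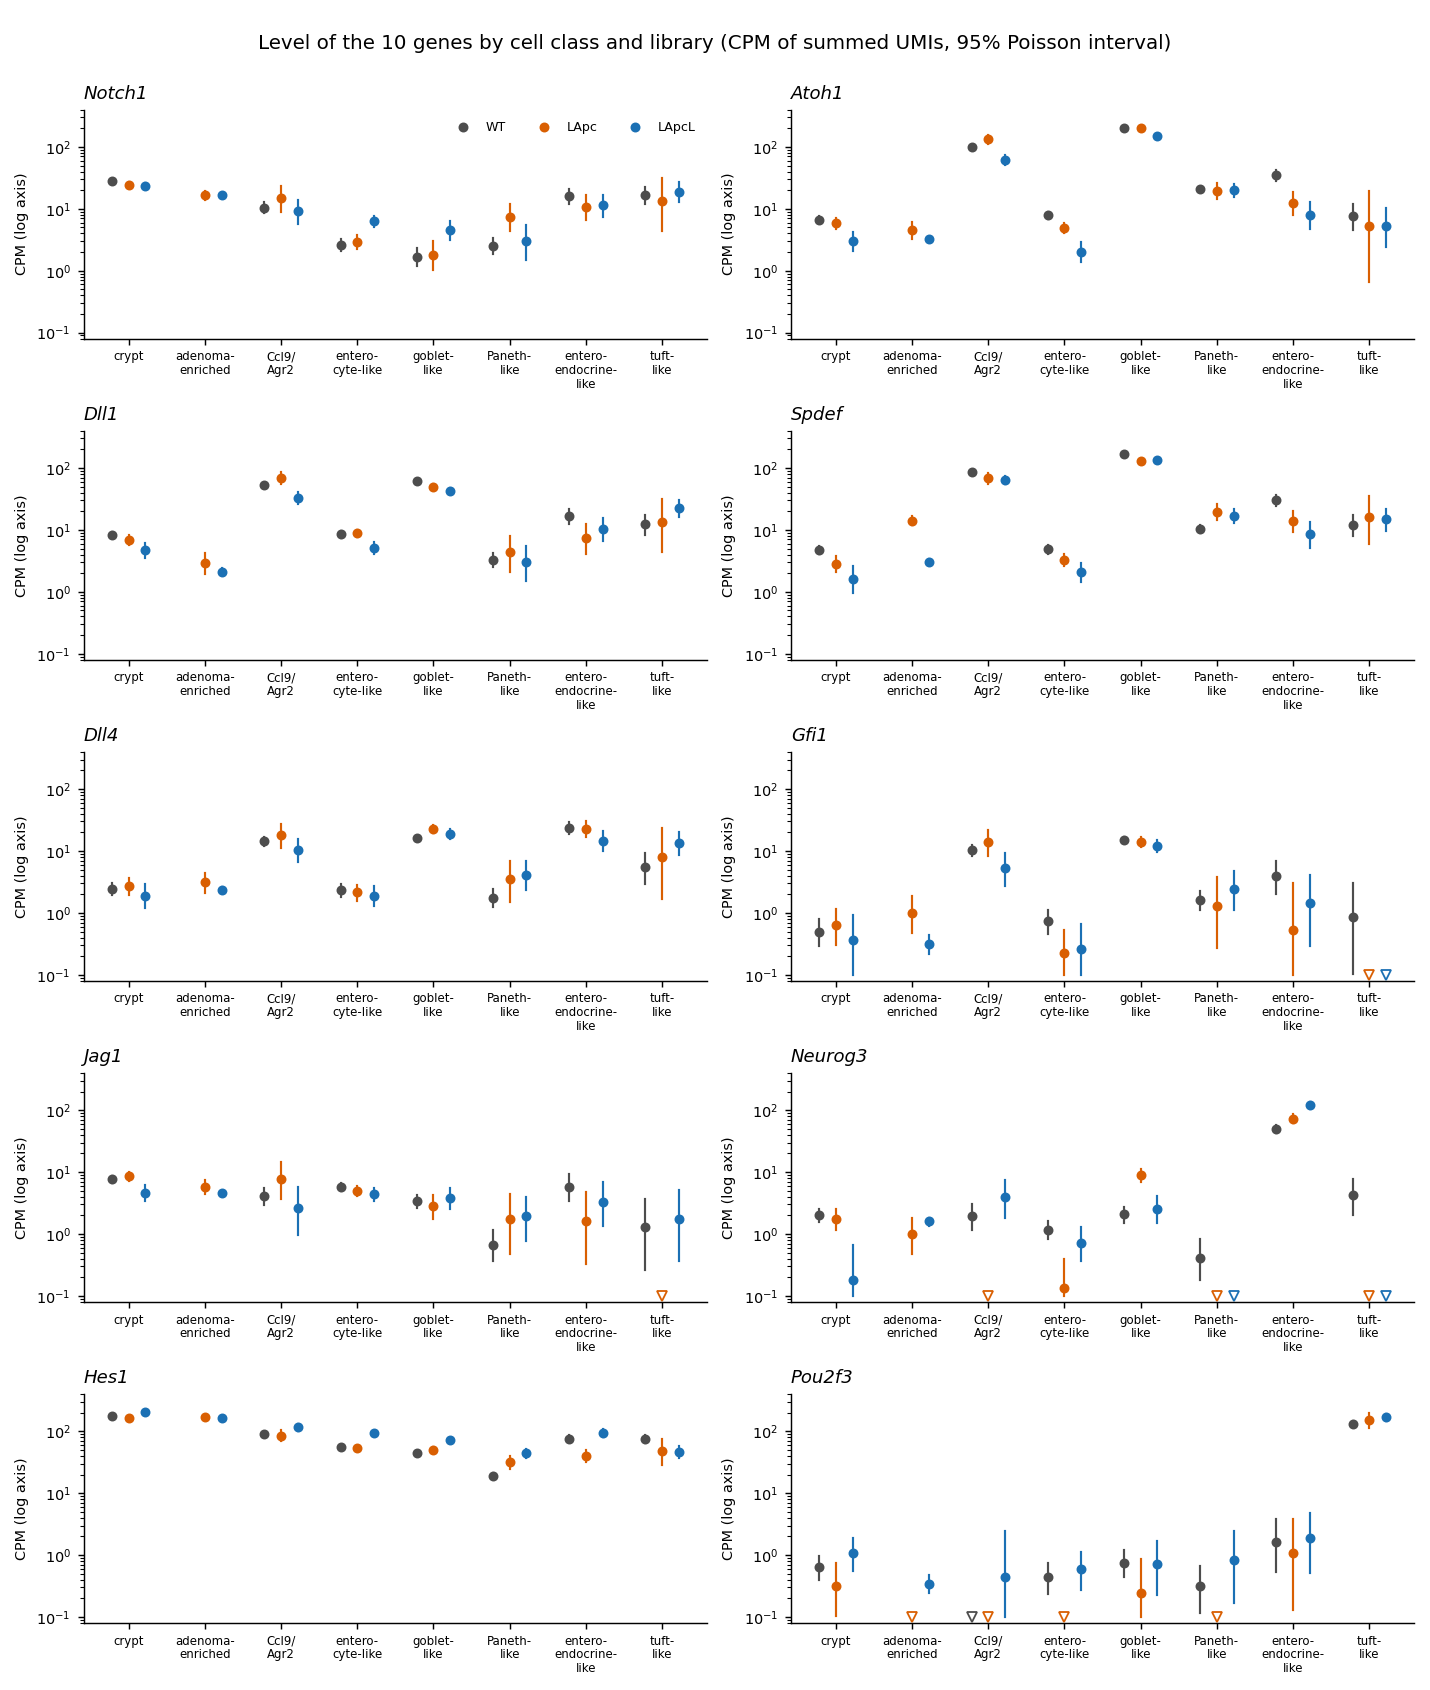
Level of the 10 genes (CPM, log axis) in each cell class, with 1 point for each library and bars for the exact Poisson 95% interval, clipped at 0.1 CPM. Open triangles mark 0 UMIs, and the 12 WT cells of the adenoma-enriched class are not drawn. Notch1 and Hes1 were highest in crypt-like or adenoma-enriched cells, Atoh1 and Spdef in goblet-like cells, Neurog3 in enteroendocrine-like and Pou2f3 in tuft-like cells.

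The Delta ligands were found on the secretory side. Dll1 (chromosome 17, 15367354 to 15376872, minus strand) stood at 61.1 CPM in goblet-like cells of WT (57.9 to 64.4), 49.8 in LApc (45.1 to 54.9) and 43.0 in LApcL (38.3 to 48.1). In the Ccl9/Agr2 cluster it stood at 52.9 CPM in WT (48.3 to 57.8), 69.2 in LApc (55.6 to 85.2) and 33.2 in LApcL (26.2 to 41.6). Both classes were lowest in LApcL, and in the Ccl9/Agr2 cluster its interval overlapped neither of the others. Crypt-like cells held 8.25, 6.93 and 4.73 CPM (WT, LApc, LApcL), which was 13.5%, 13.9% and 11% of the goblet-like level of the same library, and enterocyte-like cells 8.48, 8.75 and 5.12 CPM. Adenoma-enriched cells had the lowest Dll1 value of the classes in both mutant libraries, 2.91 CPM in LApc (1.95 to 4.18) and 2.13 CPM in LApcL (1.87 to 2.42), with intervals that overlapped those of Paneth-like cells. The annotation places A930024N18Rik on the opposite strand within Dll1.

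Dll4 (chromosome 2, 119325784 to 119335962, plus strand) was highest in goblet-like and enteroendocrine-like cells. The enteroendocrine-like level was 23.6 CPM in WT (18.5 to 29.7), 23.1 in LApc (16.7 to 31.1) and 14.7 in LApcL (10.0 to 20.9). The goblet-like level was 16.0 CPM in WT (14.4 to 17.8), 22.6 in LApc (19.5 to 26.1) and 18.9 in LApcL (15.8 to 22.4). Only in WT did the 2 classes stand apart, with enteroendocrine-like cells higher. The Ccl9/Agr2 cluster reached 89.8%, 79.1% and 55.4% of the goblet-like level in WT, LApc and LApcL, and tuft-like cells 34.4%, 35.6% and 72.0%. Crypt-like, adenoma-enriched and enterocyte-like cells lay between 1.91 and 3.11 CPM in every library, on 21 to 84 UMIs in crypt-like cells.

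Within goblet-like cells the ligands were not spread alike, a split that was looked at after the values were seen. A finer clustering divided most of these cells into a group led by Agr2, Ccl9 and Spink4 and a group led by Ido1, Fcgbp and Clca1. Dll1 stood at 67.4 CPM in the former and 30.0 in the latter in WT, at 66.4 and 18.8 in LApc and at 48.0 and 15.8 in LApcL, and the intervals of the groups did not overlap in any library. For Dll4 the values were 14.5 and 20.04 CPM in WT, 20.7 and 24.9 in LApc and 20.2 and 12.99 in LApcL, so the order differed between libraries, and the intervals overlapped in each. Spdef followed the order of Dll1, at 185 and 104 CPM in WT, 152 and 90.9 in LApc and 144 and 107 in LApcL, again without overlap.

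Jag1 (chromosome 2, 137081456 to 137116644, minus strand) was low throughout and highest in crypt-like cells, at 7.63 CPM in WT (6.73 to 8.62), 8.51 in LApc (7.13 to 10.1) and 4.64 in LApcL (3.45 to 6.09). The LApcL interval lay below both others. Adenoma-enriched cells held 5.82 CPM in LApc (4.42 to 7.52) and 4.58 CPM in LApcL (4.19 to 4.99), and enterocyte-like cells 4.40 to 5.82 CPM. In tuft-like cells of LApc none of 372868 UMIs came from Jag1, which allows up to 8.05 CPM.

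Hes1, the repressor induced by Notch (chromosome 16, 30064384 to 30067796, plus strand), was highest in crypt-like cells, or in LApc in adenoma-enriched cells. In crypt-like cells it stood at 179 CPM in WT (175 to 184), 162 in LApc (156 to 169) and 207 in LApcL (199 to 216), 3 levels whose intervals did not overlap and which differed by less than 1.5-fold. Adenoma-enriched cells held 172 CPM in LApc (164 to 180) and 162 CPM in LApcL (159 to 164). The ratio between those libraries was -0.09 on the log2 scale (-0.16 to -0.02), and 0.15 with TMM scaling, which centres the ratios of all genes, so its direction depended on the scaling.

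Outside the crypt, Hes1 was higher in LApcL than in WT and past the fold in 3 classes, where 18.6% (enterocyte-like), 20.9% (goblet-like) and 50.8% (Paneth-like) of genes were. In enterocyte-like cells it stood at 56.6 CPM in WT, 54.2 in LApc and 92.3 in LApcL, a log2 ratio of 0.71 to WT (0.60 to 0.81), or 0.60 relative to the TMM centre of all genes. In goblet-like cells it stood at 45.1, 50.5 and 71.4 CPM, a log2 ratio of 0.66 to WT (0.51 to 0.82), or 0.46 relative to that centre. In Paneth-like cells it stood at 18.8, 31.8 and 44.0 CPM, a log2 ratio of 1.22 (0.95 to 1.5), or 0.41 relative to the centre. The 8 adenoma markers were also highest in LApcL in these 3 classes, summing to 1.51, 15.1 and 107 CPM in enterocyte-like, 15.7, 25.3 and 189 CPM in goblet-like and 9.36, 47.1 and 122 CPM in Paneth-like cells of WT, LApc and LApcL, with 2, 2 and 3 of them at 0 in WT, none in LApc and Dkk2 alone at 0 in Paneth-like cells of LApcL. The 15 Wnt/TA markers summed to 1595, 1158 and 1988 CPM in enterocyte-like, 1494, 1159 and 2030 CPM in goblet-like and 563, 996 and 1152 CPM in Paneth-like cells. Their part in the Hes1 differences was not tested. In tuft-like cells Hes1 was lower in LApcL, with 75.2 CPM in WT (64.5 to 87.2), 48.3 in LApc (28.6 to 76.3) and 46.8 in LApcL (37.0 to 58.3). Enteroendocrine-like cells held 76.1 CPM in WT, 40.3 in LApc and 93.6 in LApcL, lowest in LApc and apart from both others. The 8 adenoma markers summed to 88.8, 220 and 469 CPM in tuft-like and 28.5, 127 and 531 CPM in enteroendocrine-like cells of WT, LApc and LApcL. They were thus highest in LApcL also in tuft-like cells, where Hes1 was lower. The 15 Wnt/TA markers summed to 4383, 2982 and 3832 CPM in tuft-like and 3885, 2348 and 4057 CPM in enteroendocrine-like cells.

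Atoh1, the switch to secretory fate (chromosome 6, 64729125 to 64731245, plus strand), was highest in goblet-like cells in every library. Goblet-like cells held 199 CPM in WT (193 to 204), 205 in LApc (195 to 215) and 149 in LApcL (140.5 to 159), and the Ccl9/Agr2 cluster 99.1, 132 and 61.6 CPM. LApcL was lowest in both. In WT, goblet-like cells held 70.2% and the Ccl9/Agr2 cluster 14.4% of all Atoh1 UMIs. At 3000 UMIs a cell, a depth to which all cells were thinned, 43.7%, 40.6% and 36.5% of goblet-like cells had an Atoh1 UMI. Paneth-like cells, which also need Atoh1, held 20.8, 19.6 and 19.8 CPM and did not differ beyond their intervals. Enteroendocrine-like cells reached 17.5%, 6.03% and 5.41% of the goblet-like level of WT, LApc and LApcL. Without thinning, an Atoh1 UMI was found in 76.5% of goblet-like, 55.9% of Paneth-like and 22.7% of enteroendocrine-like cells of WT. Paneth-like cells were the deepest of these.

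Spdef, an Ets-type factor of goblet and Paneth maturation (chromosome 17, 27714352 to 27728955, minus strand), had the same leading classes, with 167 CPM in goblet-like cells of WT (162 to 173), 128 in LApc (120 to 136) and 137 in LApcL (128 to 146). The Ccl9/Agr2 cluster held 85.8, 68.4 and 64.2 CPM. WT was highest in both classes, short of the fold. Gfi1, a zinc finger repressor of the same lineages (chromosome 5, 107716657 to 107726036, minus strand), stood at 15.2 CPM in WT (13.7 to 16.9), 13.8 in LApc (11.4 to 16.6) and 12.2 in LApcL (9.79 to 15.1) in goblet-like cells, with overlapping intervals. The Ccl9/Agr2 cluster held 10.3, 14.0 and 5.24 CPM, and no other class exceeded 3.89 CPM.

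Against crypt-like and enterocyte-like cells, Spdef set the adenoma-enriched cells of LApc apart. It stood at 14.0 CPM there (11.8 to 16.6, 140 UMIs) and at 3.04 CPM in those of LApcL (2.72 to 3.38, 341 UMIs), while crypt-like cells held 4.77 CPM in WT (4.06 to 5.56), 2.84 in LApc (2.07 to 3.80) and 1.64 in LApcL (0.97 to 2.59). Between the adenoma-enriched cells the log2 ratio of LApcL to LApc was -2.21 (-2.50 to -1.92). Against crypt-like cells of the same library it was 2.31 (1.81 to 2.83) in LApc and 0.89 (0.21 to 1.66) in LApcL. Spdef in LApc adenoma-enriched cells lay above every other value in crypt-like, adenoma-enriched and enterocyte-like cells. Its interval there overlapped those of tuft-like and enteroendocrine-like cells of LApc, so the level was not particular to adenoma-enriched cells.

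Atoh1 and the goblet markers had lower levels in LApcL too. In these cells the 8 goblet markers summed to 3311 CPM for LApc and 1323 CPM for LApcL, and Atoh1 stood at 4.51 and 3.21 CPM, a log2 ratio of -0.49 (-0.94 to -0.01) that was past the fold under 3 of 7 alternative settings. The part of goblet RNA in the Spdef difference was not tested. As a percent of the goblet-like level of the same library, Spdef reached 10.97% in adenoma-enriched cells of LApc, whereas Atoh1 reached 2.21% and the 8 goblet markers together 1.04%. In LApcL the values were 2.22%, 2.15% and 0.78%. Tuft-like cells of LApc had a like pattern, with Spdef at 12.6%, Atoh1 at 2.62% and the goblet markers at 1.34%. In LApc, Spdef also reached 10.9% in enteroendocrine-like and 15.3% in Paneth-like cells, with Atoh1 at 6.03% and 9.58% and the goblet markers at 5.08% and 6.28%. Of the 1265 cells, 118 had a Spdef UMI (9.33%, exact binomial 7.78 to 11.1%). An Atoh1 UMI was found in 43 of the 1265 cells (3.40%) and in 6 of the 118. The median share of goblet marker UMIs was 0.273% in the 118 and 0.279% in the others, and the median depth was 9391 and 7365 UMIs. Thinned to 3000 UMIs, the share with a Spdef UMI was 3.27% (2.34 to 4.42%) in LApc and 0.973% (0.785 to 1.19%) in LApcL, beside 0.99% and 0.354% in crypt-like and 0.801% and 0.576% in enterocyte-like cells, and median depths before thinning were 7505 and 11341 UMIs. These views were added after the level had been seen.

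**Figure D2:**
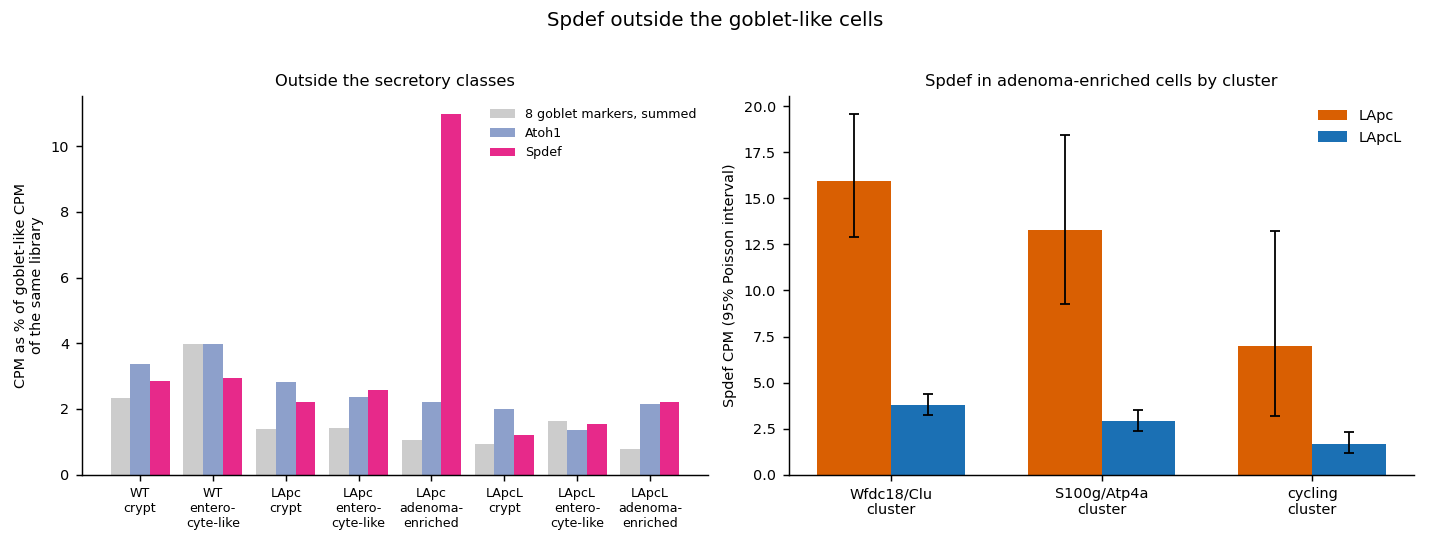
Left, summed goblet markers, Atoh1 and Spdef in crypt-like, enterocyte-like and adenoma-enriched cells as a percent of the goblet-like CPM of the same library. Right, Spdef CPM with exact Poisson 95% intervals in 3 clusters of adenoma-enriched cells. The Spdef bar of LApc adenoma-enriched cells reaches 10.97%, and LApc lies above LApcL in all 3 clusters.

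The difference was present in each state of the adenoma-enriched cells. In the cluster led by Wfdc18 and Clu, Spdef stood at 16.0 CPM in LApc and 3.79 in LApcL, in the cluster led by S100g and Atp4a at 13.3 and 2.90 CPM, and in the cycling cluster at 6.96 and 1.65 CPM. The log2 ratios were -2.08, -2.19 and -2.07, and -2.11 with the clusters given even weight. Only 9 UMIs lay behind the LApc value of the cycling cluster. Gfi1 was also lower in LApcL, at 0.31 against 1.00 CPM, a log2 ratio of -1.69 (-2.73 to -0.51) that rested on 35 and 10 UMIs.

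Of the 10 members, 2 were past the fold between the adenoma-enriched cells of LApcL and LApc, both lower, and 26.1% of the 14278 genes tested were past it, 22.4% lower and 3.66% higher, so the count of members lay near the background. The other log2 ratios were -0.49 for Atoh1 (-0.94 to -0.01), -0.45 for Dll1 (-1.01 to 0.16), -0.40 for Dll4 (-0.94 to 0.18), -0.35 for Jag1 (-0.74 to 0.07) and 0.67 for Neurog3 (-0.24 to 1.75). Pou2f3 had 39 UMIs in 9505 cells of LApcL, or 0.347 CPM, and 0 in the 1265 cells of LApc, and it was not past the fold. In the cluster led by Wfdc18 and Clu, with 18 and 0 UMIs, the lower limit of its log2 ratio was -0.88. These counts do not tell the libraries apart. TMM scaling put the centre of all genes at -0.23, and relative to it Spdef stood at -1.98 and Gfi1 at -1.45.

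**Figure D3:**
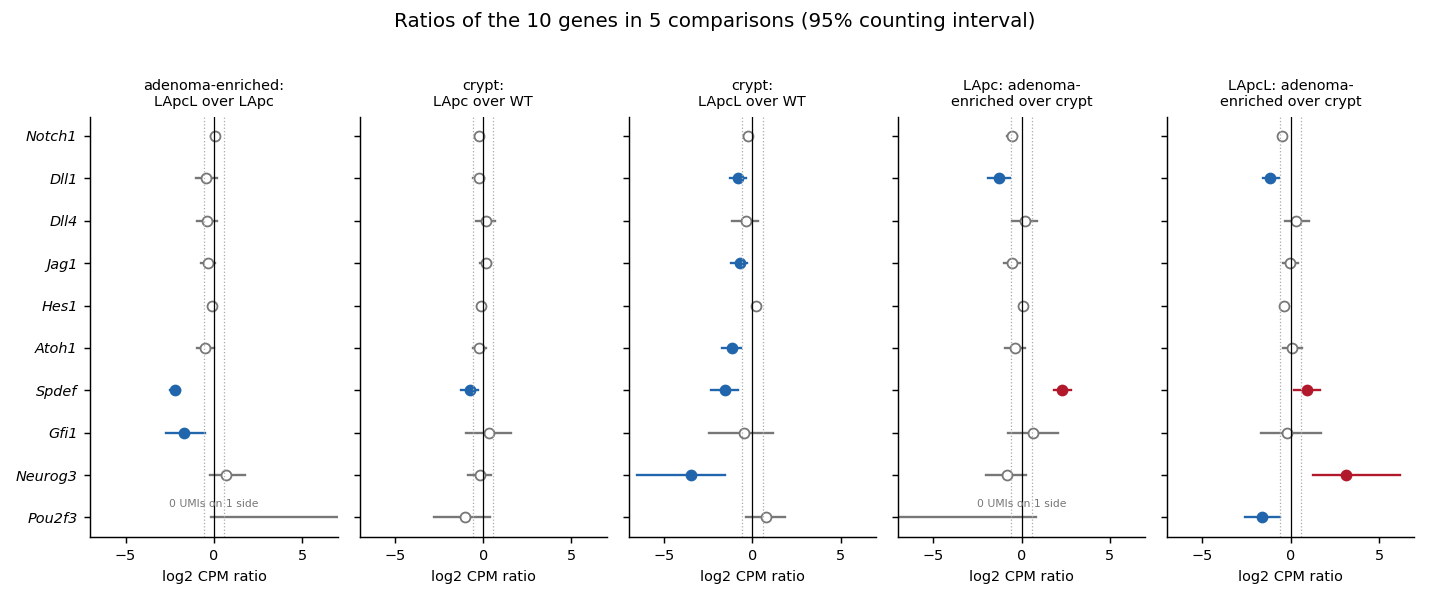
Log2 ratio of CPM for the 10 genes in 5 comparisons, with exact 95% counting intervals clipped at -7 and 7. Filled blue points were past the 1.5-fold limit (dotted lines) on the lower side and filled red points on the higher side. Spdef is lower in LApcL than in LApc adenoma-enriched cells and higher in adenoma-enriched than in crypt-like cells of either library.

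Adenoma-enriched cells were also set against crypt-like cells of their own library. In LApc, 2 of the 9 members tested were past the fold, Dll1 lower at -1.25 (-1.90 to -0.65) and Spdef higher, where 41.8% of 12605 genes were. In LApcL, 4 of 10 were, where 29.6% of 14060 genes were: Dll1 lower at -1.15 (-1.59 to -0.69), Pou2f3 lower at -1.65 (-2.61 to -0.58, 39 and 12 UMIs), Spdef higher, and Neurog3 higher at 3.13 (1.26 to 6.19). Dll1 was lower in both libraries. TMM placed the centre of all genes at 0.27 in LApc and 0.17 in LApcL, and relative to it Dll1 stood at -1.52 and -1.32 and Notch1 at -0.81 and -0.64. With that scaling 6 members were past the fold in LApc. The crypt-like side of the Neurog3 ratio held 2 UMIs, and its direction turned with adenoma cells defined by main cluster (-0.70) or by markers (-0.32).

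Between crypt-like cells of LApc and WT only Spdef was past the fold, lower at -0.75 (-1.26 to -0.26), where 14.5% of 12334 genes were past it and 3.3% were lower. Crypt-like cells of LApcL had 5 members lower than WT, where 12.4% of 12093 genes were past the fold and 5.7% were lower. These were Atoh1 at -1.16 (-1.73 to -0.63, 33 and 229 UMIs), Spdef at -1.54 (-2.33 to -0.84), Dll1 at -0.80 (-1.26 to -0.37), Jag1 at -0.72 (-1.18 to -0.28) and Neurog3 at -3.47 (-6.55 to -1.57, 2 and 69 UMIs). The Neurog3 ratio was past the fold under 4 of 7 alternative settings and turned to 0.12 with adenoma cells defined by main cluster. Jag1 had its highest value in crypt-like cells, with an interval that overlapped that of the next class in each library, whereas the other 4 belong to secretory cells or their precursors. The make-up of crypt-like cells differed between libraries. Their largest WT subcluster held 1930 of 3029 cells in WT, 811 of 2294 in LApc and 420 of 1135 in LApcL. The 8 adenoma markers summed to 3.71, 19.9 and 71.4 CPM in crypt-like cells, with 3 at 0 in WT and Wif1 at 0 in LApcL. The part of either in these differences was not tested.

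Goblet marker RNA moved with the lower Atoh1 and Spdef. The 8 markers summed to 5510 CPM in crypt-like cells of WT, 4376 in LApc and 1585 in LApcL, with none at 0, and to 9322, 4536 and 2794 CPM in enterocyte-like cells, a class on the absorptive side. Atoh1 in enterocyte-like cells was 7.87, 4.87 and 2.04 CPM, beside 6.70, 5.80 and 3.00 CPM in crypt-like cells. At 3000 UMIs the share of cells with an Atoh1 UMI was 2.41%, 1.65% and 1.06% in crypt-like and 2.28%, 1.57% and 0.576% in enterocyte-like cells, with medians before thinning of 10580, 6757 and 9194 and of 9715, 6208 and 8092 UMIs. The intervals of the 2 classes overlapped in each library. The part of free RNA in these differences was not tested.

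Neurog3, the starter of the enteroendocrine lineage (chromosome 10, 62133090 to 62134763, plus strand), differed from the other members in how its UMIs were spread. In enteroendocrine-like cells it stood at 50.2 CPM in WT (42.6 to 58.8), 73.0 in LApc (61.2 to 86.3) and 120 in LApcL (106 to 136), levels whose counting intervals did not overlap. The WT UMIs lay in 29 of 317 cells, those of LApc in 21 of 511 and those of LApcL in 37 of 355, at 5.34, 6.48 and 6.84 UMIs for each such cell. The intervals above treat UMIs as independent and are too narrow for a gene held by so few cells. As shares of cells, with depth not evened out, these are 9.15% (6.21 to 12.9%), 4.11% (2.56 to 6.21%) and 10.4% (7.45 to 14.1%), and at 3000 UMIs 5.99%, 6.27% and 10.3%, and in both views the intervals of WT and LApcL overlapped. Median depths were 9271, 3234 and 4544 UMIs, and 224 of the LApc cells were too shallow to be thinned.

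The enteroendocrine-like cells with Neurog3 carried a smaller share of hormone RNA than those without. The median share of UMIs from 11 enteroendocrine markers was 1.04% in cells with Neurog3 and 3.54% in those without in WT, 0.335% and 7.12% in LApc, and 0.138% and 3.95% in LApcL. A smaller share was not particular to Neurog3. In WT it was 1.71% with Hes1 and 7.81% without, and 1.56% with Notch1 and 3.50% without. In LApc it was 4.47% with Hes1 and 7.05% without, but 10.4% with Atoh1 and 6.61% without. In this lineage Neurog3 is known to be made briefly by precursors, before the hormones. In crypt-like cells Neurog3 was found in 20, 9 and 2 cells, in goblet-like cells in 15, 11 and 5, and in enterocyte-like cells the thinned share was 0.107%, 0.0616% and 0.115%. The 11 goblet-like LApc cells held 73 UMIs and a median goblet marker share of 4.41%, against 35.9% in goblet-like LApc cells without Neurog3. In adenoma-enriched cells 41 of 9505 LApcL cells held 179 UMIs, up to 21 in a cell, and 2 of 1265 LApc cells held 10.

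**Figure D4:**
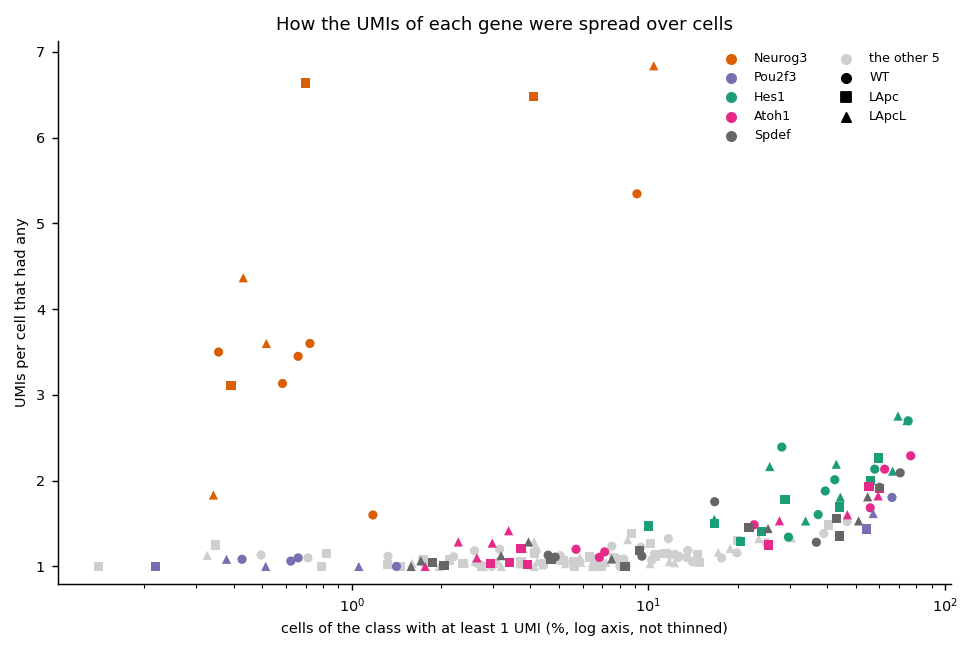
Share of cells of a class with at least 1 UMI (percent, log axis, not thinned) against UMIs for each cell that had any, for the 10 genes in each class and library with 50 or more cells and 5 or more such cells. Neurog3 stands apart, with 5.34 to 6.84 UMIs in the enteroendocrine-like cells that had it.

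Pou2f3, the tuft cell factor (chromosome 9, 43123939 to 43210369, minus strand), was found mainly in tuft-like cells, which held 83.3%, 86.2% and 79.5% of its UMIs in WT, LApc and LApcL. Tuft-like cells held 133 CPM in WT (119 to 149), 150 in LApc (113 to 195) and 168 in LApcL (149 to 188), and no other class exceeded 1.90 CPM. At 3000 UMIs, 37.6% (31.8 to 43.8%), 43.3% (31.2 to 56.0%) and 40.3% (34.7 to 46.0%) of tuft-like cells had a Pou2f3 UMI, shares whose intervals overlapped, beside 0.178% of enterocyte-like cells in WT and 0.115% in LApcL. Enterocyte-like cells of LApc held 0 Pou2f3 UMIs, which allows up to 0.134 CPM. The markers that define tuft-like cells did not include it.

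Goblet-like cells were past the fold in few members. Between LApc and WT it was 1 (Neurog3 higher at 2.09, 11 and 15 cells), where 16.3% of genes were, and between LApcL and WT 2, Notch1 higher at 1.44 (0.71 to 2.16) and Hes1, where 20.9% were. In enteroendocrine-like cells 5 members were lower in LApc than in WT, where 26.2% of genes were past the fold and 10.5% were lower: Jag1 at -1.86, Atoh1 at -1.49 (-2.21 to -0.83), Dll1 at -1.14, Spdef at -1.11 and Hes1 at -0.92. In LApcL, where 19.9% were past the fold, Atoh1 at -2.10 (-2.93 to -1.36), Spdef at -1.82 and Dll4 at -0.68 were lower than in WT and Neurog3 higher at 1.26. Like Atoh1 and Spdef, goblet marker RNA was lower in both mutant libraries. It summed to 33346 CPM in enteroendocrine-like cells of WT, 16088 in LApc and 6188 in LApcL. The 11 enteroendocrine markers summed to 83574, 152819 and 67882 CPM in the same cells. The part of either marker set in these differences was not tested. In WT the enteroendocrine-like cells with a Spdef UMI had a median goblet marker share of 7.44% and those without 0.629%.

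In enterocyte-like cells of LApcL, 5 members were past the fold against WT, where 18.6% of genes were. Notch1 was higher at 1.27 (0.82 to 1.72) and so was Hes1, beside the higher adenoma markers given above for these cells, while Atoh1 at -1.95 (-2.54 to -1.41), Spdef at -1.22 and Dll1 at -0.73 were lower. For LApc the 3 past the fold, where 16.3% of genes were past the fold and 6.94% were lower, were Neurog3 at -3.14, Gfi1 at -1.73 and Atoh1 at -0.69, all lower. In the Ccl9/Agr2 cluster Dll1, Atoh1 and Gfi1 were lower in LApcL than in WT, at -0.67, -0.69 and -0.98, where 10.2% of genes were past the fold and 5.59% lower, and lower than in LApc, at -1.06, -1.1 and -1.42, where 8.45% were and 6.01% lower. Between LApc and WT none of the members tested was past the fold there, where 10.4% of genes were. Paneth-like cells had 3 members past the fold and higher in LApc than in WT (Notch1 at 1.54, Spdef at 0.91 and Hes1 at 0.76) and 3 in LApcL (Dll4 at 1.22, Hes1 and Spdef at 0.71). There 42.6% and 50.8% of genes were past the fold, and TMM placed the centre of all genes at 0.81 and 0.82. Relative to it Hes1 was at -0.05 in LApc and Spdef at 0.10 in LApc and -0.10 in LApcL, so the direction of Hes1 in LApc and of Spdef in LApcL turned with the scaling. The median depth of Paneth-like cells was 43778 UMIs in WT, 14045 in LApc and 18402 in LApcL. Tuft-like cells of LApcL held more Dll1 (0.87) and Dll4 (1.3, 23 and 13 UMIs) and less Hes1 (-0.69) than WT, where 14.4% were past the fold, and in those of LApc no member tested was, where 14.0% were.

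The mutant libraries were also set against each other class by class, LApcL against LApc. In enterocyte-like cells 5 members were past the fold, where 19.3% of genes were, Notch1 (1.08) and Hes1 (0.77) higher and Atoh1 (-1.26), Dll1 (-0.77) and Spdef (-0.65) lower. Crypt-like cells had 3 lower, Neurog3 (-3.28, 2 and 28 UMIs), Atoh1 (-0.95) and Jag1 (-0.88), where 9.55% of genes were past the fold and 7.14% were lower. Goblet-like cells had 2, Notch1 higher (1.32) and Neurog3 lower (-1.79), where 25.7% were, and enteroendocrine-like cells 2, Hes1 (1.22) and Neurog3 (0.72) higher, where 22.7% were. In Paneth-like cells Notch1 was lower (-1.29, 11 and 17 UMIs), where 11.7% were past the fold, and in tuft-like cells none of the members tested was, where 11.9% were. Outside Paneth-like cells the TMM centre lay between -0.09 and 0.23 in these class comparisons, and no direction named here turned with it. Crypt-like cells were also split by finer cluster, after the values were seen. Jag1 was past the fold in the cycling cluster (-1.17) and not in the cluster led by Clca3b and Olfm4 (-0.32, -1.16 to 0.49). Atoh1 was past it in the latter (-1.12) and not in the former (-0.64, -1.60 to 0.26). Neurog3 had too few UMIs in either cluster.

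The make-up of the libraries moved with the levels over whole libraries. Over all kept cells Atoh1 stood at 53.1 CPM in WT, 34.9 in LApc and 11.03 in LApcL, and with each library given the class make-up of WT without adenoma-enriched cells at 53.1, 55.0 and 37.6 CPM. Dll1 stood at 21.2, 13.9 and 5.27 CPM, and with the WT make-up at 19.97 in LApc and 14.4 in LApcL. Hes1 ran the other way, at 87.0, 99.4 and 148 CPM, and with the WT make-up at 82.5 and 114 CPM. Evened out in this way, the log2 ratio of LApc to WT went from -0.61 to 0.05 for Atoh1 and from -0.61 to -0.08 for Dll1, and that of LApcL to WT from -2.27 to -0.50 and from -2.01 to -0.55, short of 1.5-fold. These evened-out values carry no interval. The adenoma-enriched class was chosen by library of origin, so its size was not compared.

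Members were also looked at within single cells, at 3000 UMIs. Among crypt-like cells of WT, 6 of the 73 cells with an Atoh1 UMI had Dll1 (8.22%, 3.08 to 17.0%), against 2.37% of the others, in LApc 5 of 35 (14.3%, 4.81 to 30.3%) against 1.77%, and in LApcL 0 of 12 (up to 26.5%) against 2.14%. Hes1 was found in 24.7% of the cells with an Atoh1 UMI and 39.3% of the others in WT, in 31.4% and 35.9% in LApc and in 50% and 42.4% in LApcL. Since Atoh1 UMIs were about as frequent in enterocyte-like as in crypt-like cells, no order is read from these shares. In the Ccl9/Agr2 cluster Dll1 stood with Atoh1 in 21.2% and without it in 12.9% of WT cells, in 31.8% and 17.5% of LApc cells and in 14.7% and 8.44% of LApcL cells, a like order in all 3 whose intervals overlapped. In goblet-like cells of WT the same shares were 17.1% and 16.4%.

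The rest of the Notch pathway, 43 further genes, was counted beside the members. Between the adenoma-enriched cells of LApcL and LApc, 8 of 39 tested were lower and 3 higher, with a median log2 ratio of -0.20 against -0.17 over all genes, of which 22.4% were lower and 3.66% higher. The lowest were Neurl1a (-3.69), a ubiquitin ligase acting on ligands, Maml2 (-2.40), a coactivator of cut Notch, and the target Hey1 (-1.75). The higher ones were the target Hes5 (2.84, 161 and 2 UMIs), Dlk1 (1.03), a Delta-like protein, and the ligand Jag2 (0.61). In crypt-like cells 1 of 32 was higher in LApc than in WT, the receptor Notch4 (0.91), and 2 were lower, Hes5 (-1.08) and Olfm4 (-0.89), a Notch target of stem cells, and the median was 0.075 against 0.062, where 11.2% of genes were higher and 3.3% lower. In LApcL against WT, 1 of 31 was lower, the sheddase Adam17 (-0.77), with a median of -0.07 against -0.04, where 5.7% of genes were lower.

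The same genes were counted between adenoma-enriched and crypt-like cells. In LApc 13 of 32 were higher and 4 lower, with a median of 0.39 against 0.24, and in LApcL 10 of 39 were higher and 2 lower, with a median of 0.29 against 0.21. Over all genes 30.7% and 11.1% were higher and lower in LApc, and 21.0% and 8.57% in LApcL, so the LApcL count lay near the background. Hey1 was higher in both (5.65 and 4.37, with 2 and 1 UMIs in crypt-like cells), and so was Jag2 (2.93 and 2.17). Neurl1a was higher in LApc (5.97, 79 and 2 UMIs) and Dlk1 in LApcL (3.35). Olfm4 (-3.62 and -4.56) and Nrarp (-2.47 and -1.91), a target that damps the pathway, were lower in both, and Neurl1b (-1.46) was lower in LApc. Targets of Notch thus stood on both sides, with Hes1 at 0.08 and -0.36, and at -0.19 and -0.52 with TMM scaling.

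The other secretory lineage factors, 29 genes, were counted the same way. Between the adenoma-enriched cells of LApcL and LApc, 10 of 23 were lower and 1 higher, with a median of -0.81 against -0.17, where 22.4% of genes were lower and 3.66% higher. The lowest were Isl1 (-2.54) and Fev (-2.29), factors of enteroendocrine cells, and Creb3l4 (-2.26, 342 and 145 UMIs), a membrane-bound transcription factor, and the higher one was Ascl2 (0.66), a stem cell factor. Enteroendocrine markers moved with Isl1 and Fev, the 11 of them summing to 807 CPM in LApc and 129 CPM in LApcL with none at 0, and their part was not tested. In crypt-like cells of LApc against WT, 3 of 19 were lower, Isl1 (-2.73), Nkx2-2 (-1.63) and Ascl2 (-0.80), and 2 higher, Creb3l1 (0.72) and Rfx3 (0.64), with a median of -0.22 against 0.06, where 3.3% of genes were lower and 11.2% higher. In LApcL 6 of 19 were lower and none higher, the lowest being Fev (-2.69, 1 and 20 UMIs), Isl1 (-1.47) and Nkx2-2 (-1.36), with a median of -0.27 against -0.04, where 5.7% of genes were lower. Between adenoma-enriched and crypt-like cells, 7 of 13 were higher and none lower in LApc, led by Foxa1 (2.29), Creb3l4 (2.21) and Sox4 (1.79), with a median of 0.72 against 0.24, where 30.7% of genes were higher. In LApcL 5 of 23 were higher, led by Foxa1 (1.64), Mycl (1.06) and Ascl2 (0.99), and 3 lower, Hmx2 (-1.70), Xbp1 (-0.87) and Creb3l1 (-0.72), with a median of -0.24 against 0.21, where 21.0% of genes were higher and 8.57% lower. Foxa1 is a factor of goblet and enteroendocrine differentiation, Sox4 acts in enteroendocrine and tuft precursors, and Xbp1 serves secretion.

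Over 23 points, the classes of the 3 libraries, Pearson's r of log2(CPM + 10) gave the genes most like each member. The points of a library share depth and free RNA, so r is a description. Atoh1 was nearest to Rep15 (r = 0.99), Ern2 (0.98) and Sytl2 (0.98), and Spdef to Creb3l4 (0.98), Ern2 (0.98) and Pla2g10 (0.97). Hes1 was nearest to Nop2 (0.96), Taf1d (0.96) and Atic (0.95), and Notch1 to Dnajc9, Trim37 and Gkap1 (each 0.92). Dll1 was nearest to Galnt7 (0.94), Mlph (0.92) and Tsta3 (0.92) and Dll4 to Mcf2l (0.94), Cbfa2t3 (0.91) and Rcan3 (0.91). Neurog3 was nearest to Pax4 (0.98), Lrp11 (0.97) and Rimbp2 (0.97), and Pou2f3 to Hmx3, Tmem229a and Hmx2 (each 1.00). Pou2f3 was low outside tuft-like cells, so the tuft-like points largely set its r, and any gene confined to these cells would score high. Jag1 and Gfi1 stayed under 20 CPM in every class and were left out.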

How the data were processed

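The authors deposited UMI count matrices, made with Cell Ranger 2.1.1 on a mouse mm10 reference (GRCm38), and the values used are these raw counts. The kit was version 2 or 3, not given for each library. Cells in the upper or lower 1% of detected genes or with over 20% mitochondrial UMIs were left out, as were the cells with the highest Scrublet scores at the expected doublet rate (1052, 1158 and 2339 cells in WT, LApc and LApcL), since the automatic threshold marked 2065, 4 and 755. Libraries were integrated and clustered with Seurat 5.3.0 on 946 features (20 components, resolution 0.2) without the members or the 2 lists. Clusters were named by fixed markers, with naming limits set after the clusters were seen. Adenoma-enriched subclusters came from a mutual-nearest-neighbour correction and Leiden clustering at resolution 0.4. UMIs were summed over cells, with 95% exact intervals (scipy 1.17.1). The comparison was tested on simulated Poisson counts. These hold no clumping of UMIs over cells and no variation between mice, so the simulation cannot check the calls for either. Promoters came from RefSeq, gene positions from GENCODE. The members and lists were chosen with earlier results of these data known. All 10 members were named, with up to 3 list genes in each direction and comparison and 3 like genes a member. Sums by finer clusters, percent of the goblet-like level and cells with a UMI were added after values were seen. The labels do not give the number of mice in a library.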

Additional observations from a re-analysis of the deposited data

How the results depend on the processing

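No paired analysis was possible because each group had 1 library, and for the same reason no library could be left out. Spdef and Gfi1 were lower in LApcL than in LApc adenoma-enriched cells under 7 alternative settings of filters, clustering, adenoma definition and scaling (Spdef -2.30 to -1.98, Gfi1 -1.93 to -1.45). The count of members past the fold there was 2, and became 4 with no doublets removed and 1 with 100 UMIs or more. By adenoma cluster, a setting added after seeing the data, it was 2 in the Wfdc18 and Clu cluster, 3 in the S100g and Atp4a cluster (Spdef, Dll1 at -1.18 and Atoh1 at -1.14) and 1 in the cycling cluster. Between crypt-like cells of LApc and WT it was 1, and 0 with adenoma cells called by markers or a fold of 2. Between crypt-like cells of LApcL and WT it was 5, and 3 with adenoma cells called by main cluster or a fold of 2. Adenoma-enriched against crypt-like cells it was 2 in LApc, and 4 with no doublets removed or CPM without mitochondrial and ribosomal protein genes and 6 with TMM scaling, and it was 4 in LApcL, and 2 with a mitochondrial limit of 10% or resolution 0.4. Neurog3 turned direction with the definition of adenoma cells, at 0.12 in crypt-like cells of LApcL against WT by main cluster, and at -0.70 by main cluster and -0.32 by markers in adenoma-enriched against crypt-like cells of LApcL. Of the 10 members, 2 had a higher thinned share of cells with a UMI in LApcL than in LApc adenoma-enriched cells, 7 without thinning and 4 with no doublets removed. The causes were not tested. Depth limits Gfi1, Jag1, Neurog3 and tuft-like LApc cells most, where values rested on few UMIs or cells.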
